A study of Mus musculus with 24 samples.

Results

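Adult neurogenesis in the hippocampus was followed through 9 genes, Dcx, Sox11, Sox4, Eomes, Igfbpl1, Neurod1, Mki67, Top2a and Draxin, out of the 49568 gene symbols counted in each library. They were taken by symbol as markers of dividing cells, progenitors and newborn neurons, not by a threshold on their values, although earlier results of these data were known. RNA came from the individual hippocampi of male, experimentally naive mice on a C57-Bl/6J background, aged 21 to 23 months, with 1 library for each of 24 mice. Wild-type (WT) mice in standard housing (WTSH), WT mice in enriched housing (WTEE), MSK1 kinase-dead (MSK1 KD) mice in standard housing (KDSH) and MSK1 KD mice in enriched housing (KDEE) were compared. MSK1 KD mice are homozygous for the D194A point mutation, which knocks out the N-terminal kinase domain of MSK1 in every cell, and they were bred as a line separate from the WT line. Enriched mice lived from 18 months of age in large cages with a running wheel, a tube, toys and a ladder. They also shared a cage with more mice than standard-housed mice did, so running cannot be told apart from the other parts of the housing. The study left out libraries WTSH-4, WTSH-7 and KDSH-6, which failed its quality control through ribosomal RNA reads and low correlation within their groups. This leaves 4 WTSH, 6 WTEE, 5 KDSH and 6 KDEE libraries for the comparisons, and the 3 others are shown apart. Libraries are named by group and mouse number.

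New granule neurons arise throughout life from stem cells at the inner edge of the dentate gyrus, a process that declines steeply with age and that running is known to raise in young rodents. A stem cell gives rise to dividing progenitors, which become neuroblasts and then immature neurons before they join the granule cell layer. Mki67 (the Ki-67 antigen) and Top2a (topoisomerase II alpha) belong to dividing cells of any kind. Eomes (Tbr2) is a transcription factor of intermediate progenitors, and Neurod1 drives granule neuron differentiation and is kept in mature granule neurons. Dcx (doublecortin) encodes a microtubule-binding protein of neuroblasts and immature neurons. Sox11 and Sox4 are related transcription factors of immature neurons, Igfbpl1 encodes a protein related to the insulin-like growth factor binding proteins that is found in newborn neurons, and Draxin encodes an axon guidance protein.

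The 21 kept libraries held 27410239 to 71907130 read pairs on genes. The libraries left out held 15800187 (WTSH-4), 23318036 (WTSH-7) and 39585901 (KDSH-6), and 9.4% to 17.2% of their read pairs were ambiguous between genes, against 4.1% to 6.6% in the kept libraries. Rps6ka5, the MSK1 gene, lay between 13.9 and 25.2 CPM (read pairs scaled to library size) in the kept libraries, and since a point mutation need not alter the amount of RNA, this level does not check the genotype labels. According to the paper, aligned reads at this gene were inspected and the mutation was verified in samples of the MSK1 KD group. CPM were adjusted by the trimmed mean of M-values (TMM). In bulk tissue, fewer cells of a type and less RNA per cell cannot be told apart.

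Each of the 9 genes had enough read pairs to be kept by edgeR's default filter and was among the 20187 genes tested, but the number of read pairs behind them differed widely. The median count per kept library was 1115 for Dcx, 633 for Neurod1, 598 for Sox11, 465 for Sox4, 152 for Mki67, 134 for Igfbpl1, 63 for Eomes, 27 for Top2a and 25 for Draxin. By its lowest count in a kept library, Eomes came nearest to the detection limit, while Draxin and Top2a had the lowest medians. Eomes had fewer than 10 read pairs in 2 of the 21 kept libraries and ranged from 6 to 192. The lowest counts of Draxin, Igfbpl1 and Top2a were 10, 11 and 12, and none of the 9 genes fell to 3 or fewer read pairs in a kept library. In the shallower libraries left out, Draxin (4), Top2a (6), Igfbpl1 (8) and Eomes (9) were under 10 read pairs in WTSH-4. Counting error alone made up 49.1% of the variance of Draxin between mice of a group and 35.4% of that of Top2a, but 3.57% for Eomes, 3.03% for Igfbpl1 and 2.29% for Dcx. The wide scatter of Eomes and Igfbpl1 was therefore a spread between libraries, with a within-group coefficient of variation (CV) of 65.3% and 51.4%. Their biological CV as estimated by edgeR, 0.68 and 0.59, lay at the 98.5th and 98.0th percentile of the genes tested, where the median was 0.14.

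**Figure D1:**
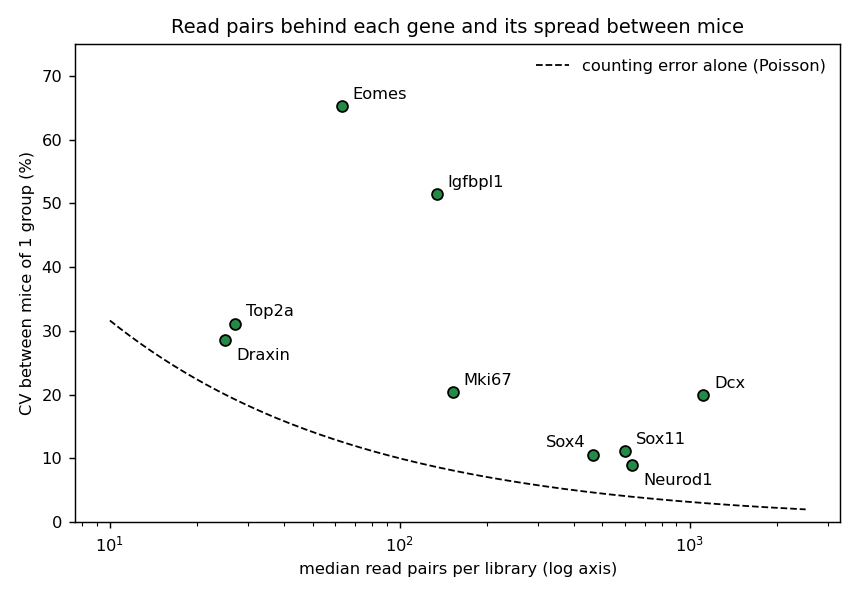
Median read pairs per kept library (x axis, log scale) against the CV between mice of 1 group (y axis, %), 1 point per gene, with the dashed line giving the CV from counting alone. Draxin and Top2a, with medians of 25 and 27 read pairs, have the largest shares of variance from counting. Eomes (65.3%) and Igfbpl1 (51.4%) lie far above the line.

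Levels of different genes can be compared only per length. On the scale of mean CPM per kilobase of exon, Neurod1 was highest at 4.87, followed by Sox4 (2.04), Dcx (1.88), Sox11 (1.495), Igfbpl1 (0.833), Eomes (0.335), Mki67 (0.293), Draxin (0.103) and Top2a (0.0688). The median over the tested genes with a known length was 2.84, so Neurod1 was the only one of the 9 above it on this scale, and Top2a stood at the 3.34th percentile and Draxin at the 6.41th. Sox4 shares 2616 of its 4795 exon bases with another gene, and over the 2179 unshared bases alone its level would be 4.49 CPM per kilobase, above that median, so its place in this order is uncertain. The high CPM of Dcx went with its 12647 exon bases, the longest of the 9.

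The members of the cell division pair are shown with their promoters (250 bases before to 50 after the start, RefSeq, GRCm38.p6), because both genes serve dividing cells while their levels did not follow each other here. The promoters of Sox11 and Neurod1 are shown beside them because those genes had the second highest correlation of the 36 pairs of members. Capitals mark CCAAT, or ATTGG where it lies on the other strand, a motif common in promoters of cell cycle genes. Each sequence reads 5′ to 3′ on the strand of its gene, which is the minus strand for all 4.
Mki67 promoter, chr7:135716330-135716629: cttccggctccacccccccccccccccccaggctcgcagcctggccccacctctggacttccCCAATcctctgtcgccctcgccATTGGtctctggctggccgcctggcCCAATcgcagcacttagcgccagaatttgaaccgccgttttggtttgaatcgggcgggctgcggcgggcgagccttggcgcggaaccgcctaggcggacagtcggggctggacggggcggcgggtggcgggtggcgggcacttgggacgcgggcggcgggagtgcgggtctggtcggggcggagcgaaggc
Top2a promoter, chr11:99024140-99024439: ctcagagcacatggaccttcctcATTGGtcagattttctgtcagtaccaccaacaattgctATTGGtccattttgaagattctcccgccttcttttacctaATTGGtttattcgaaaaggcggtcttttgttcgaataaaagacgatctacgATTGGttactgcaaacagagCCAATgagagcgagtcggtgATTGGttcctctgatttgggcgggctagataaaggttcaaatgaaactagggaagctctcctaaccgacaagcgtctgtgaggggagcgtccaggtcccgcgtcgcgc
Sox11 promoter, chr12:27342669-27342968: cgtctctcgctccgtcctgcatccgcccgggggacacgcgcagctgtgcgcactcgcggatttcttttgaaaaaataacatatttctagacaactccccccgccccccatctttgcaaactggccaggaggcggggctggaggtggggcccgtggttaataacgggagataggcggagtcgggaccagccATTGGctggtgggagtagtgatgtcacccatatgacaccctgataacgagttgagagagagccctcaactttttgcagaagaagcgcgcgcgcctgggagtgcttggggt
Neurod1 promoter, chr2:79456587-79456886: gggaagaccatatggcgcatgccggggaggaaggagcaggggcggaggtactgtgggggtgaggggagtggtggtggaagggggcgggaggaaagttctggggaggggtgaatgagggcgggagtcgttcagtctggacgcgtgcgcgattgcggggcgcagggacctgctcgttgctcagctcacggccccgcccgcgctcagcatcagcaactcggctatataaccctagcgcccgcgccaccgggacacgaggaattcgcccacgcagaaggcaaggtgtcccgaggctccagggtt
The motif occurred 3 times for Mki67, 6 times for Top2a, 1 time for Sox11 and 0 times for Neurod1, and 37.4% of the 32851 promoters of this length in the table hold it at least 1 time, 11.7% at least 2 times. Among the members not printed, it occurred 4 times for Sox4, 2 times for Eomes, 1 time in each Dcx entry and 0 times for Draxin. The counts therefore do not set the genes of dividing cells apart from the others. TGACG, the core of the cyclic AMP response element bound by CREB, was searched on both strands (as TGACG or CGTCA, which can share bases where both strands match) and occurred in 0 of the 9 entries for the 8 members matched, against 20.8% of all promoters. Igfbpl1 had no entry.

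Among the markers of dividing cells, Mki67 (chr7:135689784-135716361, minus strand, 10061 exon bases) was 3.20, 3.25, 3.33 and 3.67 CPM in the 4 WTSH mice and 1.28, 2.35 and 3.53 CPM at the lowest, median and highest of the 6 WTEE mice. It was 2.76, 2.89, 3.39, 3.41 and 3.84 CPM in the KDSH mice and 1.99, 2.84 and 3.67 CPM at the lowest, median and highest of the KDEE mice. The 4 WTSH mice lay close together and the enriched mice reached lower, but the groups overlapped in both genotypes, and WTEE-10 was the lowest of all at 1.28 CPM. The mean was 3.36 ± 0.209 (SD, n = 4) CPM in WTSH, 2.49 ± 0.791 (SD, n = 6) in WTEE, 3.26 ± 0.435 (SD, n = 5) in KDSH and 2.86 ± 0.652 (SD, n = 6) in KDEE. Top2a (chr11:98992943-99024189, minus strand) was at 0.655 ± 0.152 (SD, n = 4) CPM in WTSH, 0.699 ± 0.235 (SD, n = 6) in WTEE, 0.629 ± 0.215 (SD, n = 5) in KDSH and 0.510 ± 0.145 (SD, n = 6) in KDEE. Its 21 values, from 0.293 CPM in KDSH-24 to 1.02 CPM in WTEE-13, overlapped between all groups.

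Among the progenitor markers, Eomes (chr9:118478212-118486132, plus strand) was 0.124, 0.334, 0.707 and 3.61 CPM in the WTSH mice and 0.160, 1.72 and 2.38 CPM at the lowest, median and highest of the WTEE mice. It was 0.369, 0.654, 1.03, 1.34 and 1.75 CPM in the KDSH mice and 1.27, 1.44 and 2.91 CPM at the lowest, median and highest of the KDEE mice. WTSH held both the lowest and the highest value, 29.1 times apart, so the mean of this group rested on WTSH-19. Neurod1 (chr2:79452521-79456751, minus strand) was the steadiest of the 9 genes, between 11.2 CPM in KDSH-18 and 15.6 CPM in KDSH-3, with group means of 13.4 ± 1.45 (SD, n = 4), 13.5 ± 1.18 (SD, n = 6), 13.5 ± 1.595 (SD, n = 5) and 12.8 ± 0.314 (SD, n = 6) CPM in WTSH, WTEE, KDSH and KDEE. It shares 355 exon bases with the neighbouring Cerkl and with Gm26755, and read pairs in such a stretch can be lost as ambiguous.

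Among the markers of immature neurons, Dcx (chrX:143855842-143933311, minus strand) was 17.4, 22.9, 24.7 and 32.6 CPM in the WTSH mice and 15.5, 22.4 and 24.9 CPM at the lowest, median and highest of the WTEE mice. It was 19.9, 22.6, 24.2, 30.3 and 30.3 CPM in the KDSH mice and 18.9, 24.4 and 31.6 CPM at the lowest, median and highest of the KDEE mice. The lowest mouse of each group lay at 19.9 CPM or less and the highest at 24.9 CPM or more, and the range within each group was wider than any distance between the group means. Igfbpl1 (chr4:45809468-45826923, minus strand) was 0.227, 0.751, 2.85 and 3.76 CPM in the WTSH mice and 0.712, 2.96 and 4.68 CPM at the lowest, median and highest of the WTEE mice. It was 0.869, 2.44, 2.66, 3.80 and 4.02 CPM in the KDSH mice and 1.32, 3.23 and 4.51 CPM at the lowest, median and highest of the KDEE mice. The lowest mouse of every group lay at 1.32 CPM or less and the highest at 3.76 CPM or more.

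Sox4 (chr13:28948919-28953713, minus strand), a gene of 1 exon, was 8.75, 10.5, 10.7 and 11.1 CPM in the WTSH mice and 6.15, 8.72 and 10.1 CPM at the lowest, median and highest of the WTEE mice. Both MSK1 KD groups lay between 9.03 and 11.2 CPM, inside which 3 of the 4 WTSH values also fell. The shared exon bases of Sox4 lie opposite Gm26735, and without strand in the counting the RNA of the 2 genes cannot be told apart there. Sox11 (chr12:27334264-27342574, minus strand), also of 1 exon, ranged from 9.09 CPM in KDSH-18 to 14.4 CPM in KDSH-8, both in the same group. Draxin (chr4:148098437-148130698, minus strand) ranged from 0.208 CPM in WTSH-23 to 0.881 CPM in KDEE-12.

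**Figure D2:**
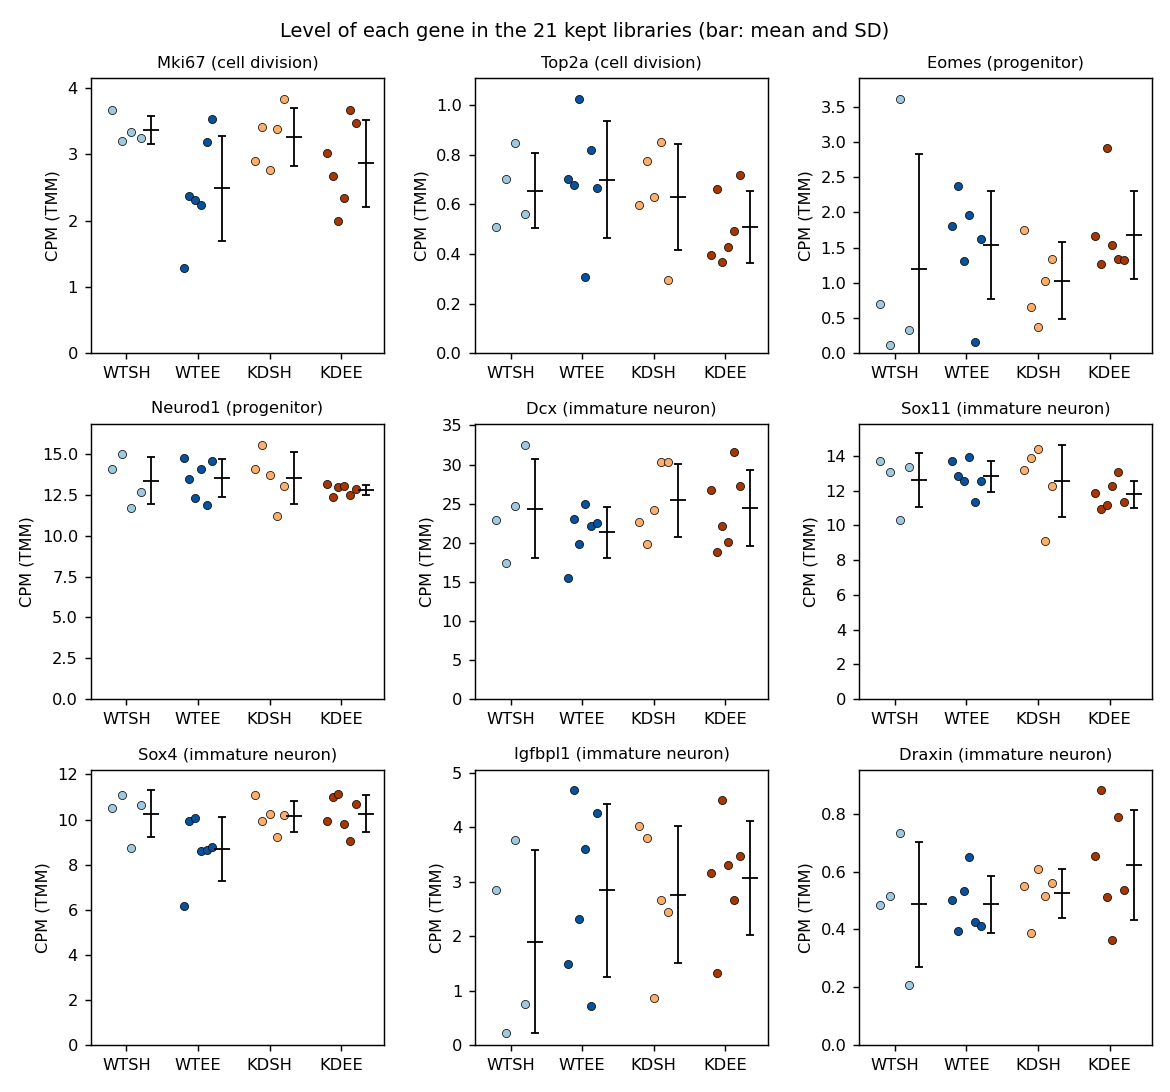
CPM (y axis, TMM-scaled, from 0) of each gene in the 4 groups (x axis), 1 point per mouse, with the horizontal bar at the mean and the vertical line spanning 1 SD on each side (cut at 0 for Eomes in WTSH). The groups overlap for all 9 genes, and Eomes and Igfbpl1 scatter most within groups.

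Whether enriched housing moved these genes was tested in WT mice, in MSK1 KD mice and as the mean of both genotypes. Calls needed a Benjamini-Hochberg adjusted p under 0.05 with a log2 fold change beyond 0.38 in either direction. By that rule 0 of the 9 genes were called in each of these comparisons, where the share of all tested genes called was 0%, 0% and 0.00495%. Few genes of any kind passed this test, so the absence of calls says little about these 9. At an unadjusted p under 0.05, 2 of 9 passed in WT (6.55% of all genes), both lower in enriched mice (2.6% of all genes were), 0 of 9 in MSK1 KD (11.6%) and 1 of 9 in the mean of genotypes (18.9%). DESeq2 also called 0 of the 9 genes, where it called 2, 14 and 41 of the 37779 genes it tested. The groups overlapped for all 9 genes in WT, where 0.986% of all genes had groups that did not overlap, and in MSK1 KD, where 1.84% did.

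Mki67 had the smallest p over both genotypes. Its log2 fold change of enriched over standard housing was -0.31 (SE 0.14, 95% interval -0.60 to -0.02, unadjusted p = 0.0354 and adjusted p = 0.248 by edgeR), or 0.804-fold. The fold change was -0.44 in WT (adjusted p = 0.651) and -0.19 in MSK1 KD (adjusted p = 0.668), and the difference between genotypes had a 95% interval of -0.83 to 0.34. Without WTEE-10 the mean of both genotypes was -0.24, and with the choroid plexus gene Ttr as a covariate it was -0.20. By exact two-sided permutation of the CPM, p was 0.0905 in WT (n = 4 and 6) and 0.275 in MSK1 KD (n = 5 and 6). The smallest p these designs allow is 0.00476 and 0.00216.

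Sox4 was the other gene under an unadjusted p of 0.05 in WT, with a log2 fold change of -0.24 (95% interval -0.46 to -0.01, adjusted p = 0.651 by edgeR) and an exact permutation p of 0.0810 (n = 4 and 6). It was -0.15 without WTEE-10, the lowest library, and 0.02 in MSK1 KD (95% interval -0.20 to 0.23). WTEE-10 was also the lowest library for Mki67 and had the highest percent of ambiguous read pairs of the kept libraries. Whether library quality had a part in the lower WT values of Sox4 and Mki67 was not tested. For Dcx the mean over genotypes was -0.13 (95% interval -0.37 to 0.12, adjusted p = 0.535), which bounds the fold between 0.775 and 1.084. Sox11 and Neurod1 were bounded more tightly, with 95% intervals of -0.19 to 0.12 and -0.16 to 0.09. Top2a was at -0.12 (95% interval -0.53 to 0.30) and Draxin at 0.12 (95% interval -0.27 to 0.51).

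Eomes and Igfbpl1 could not be bounded closely. Eomes was at 0.53 (95% interval -0.38 to 1.45, adjusted p = 0.489 by edgeR) and Igfbpl1 at 0.37 (95% interval -0.43 to 1.17, adjusted p = 0.584). Both values hung on single libraries. Igfbpl1 ran from 0.19 without WTSH-5 to 0.67 without WTSH-19, and in WT alone (0.58) from 0.21 to 1.16 without the same libraries. With Ttr as a covariate Eomes was 0.34 over both genotypes and 0.12 in MSK1 KD, where it was 0.72 without the covariate. Eomes rose to 1.36 without WTSH-19 (unadjusted p = 0.0022, adjusted p = 0.120, the smallest for any of the 9 genes under any setting tried) and fell to 0.35 without WTSH-5. In WT alone Eomes was 0.35, against 1.99 without WTSH-19 and -0.03 without WTSH-5.

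**Figure D3:**
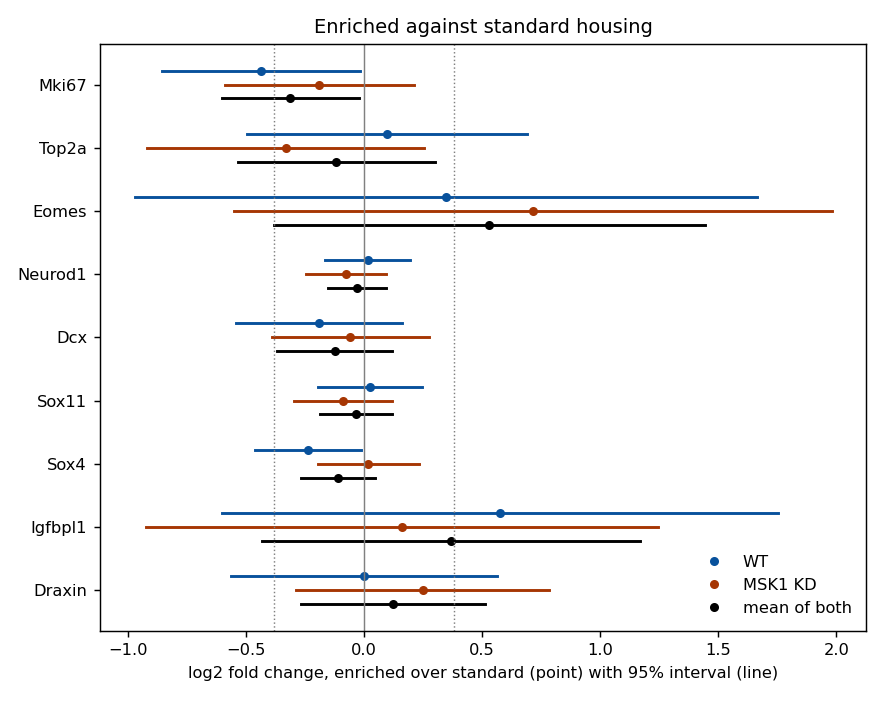
Log2 fold change of enriched over standard housing (x axis; point) with its 95% interval (line) for each gene (y axis) in WT mice, in MSK1 KD mice and as the mean of both, with dotted lines at the threshold of 0.38 in either direction. The intervals of Eomes and Igfbpl1 are the widest, and that of Mki67 for the mean, -0.60 to -0.02, ends just under 0.

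Genotype was compared within each housing. In standard housing 0 of 9 genes were under an unadjusted p of 0.05 (1% of all genes were), and in enriched housing 1 was, Sox4 (4.99% of all genes were, 1.77% in the higher direction). The groups overlapped for all 9 genes, where 0.644% of all genes in standard and 0.624% in enriched housing had groups that did not. Sox4 was higher in KDEE than in WTEE by a log2 fold change of 0.24 (95% interval 0.03 to 0.44, adjusted p = 0.796 by edgeR), and by 0.16 without WTEE-10. None of the 9 genes was called in either comparison or in the interaction of genotype and housing, with 0% of all genes called in each, and 0 of 9 were under an unadjusted p of 0.05 in the interaction (3.26% of all genes). These comparisons share groups with those of housing, so their values are not independent.

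Other genes of the same processes were counted from lists of known markers, as the mean over genotypes. Of 24 tested genes of cell division, 6 were higher and 0 lower in enriched housing at an unadjusted p under 0.05, with a median log2 fold change of 0.04, against 9.77% higher and 9.13% lower and a median of 0.01 over all genes. Cdk1, the kinase that drives entry into mitosis, was at 0.69 (SE 0.30), Cdc20, an activator of the anaphase-promoting complex, at 0.31 (SE 0.13), and Mcm2, a part of the replicative helicase, at 0.19 (SE 0.08). These genes, named for the smallest p of the list, lay on the other side of 0 from Mki67, while 9 of the 24 values were negative. Cdk1 held only 3 to 26 and Cdc20 15 to 51 read pairs per kept library. Of 18 stem cell genes, 4 were higher and 0 lower with a median of 0.08, and 6 of the 18 values were negative. The smallest p belonged to the intermediate filament genes Gfap (0.28, SE 0.08) and Vim (0.39, SE 0.11), which astrocytes also express, while Nes, the intermediate filament gene that defines neural stem cells, was at -0.08 (SE 0.07). Of 11 progenitor genes, 3 were higher and 0 lower, with Hes6 at 0.25 (SE 0.11), while Neurog2, which acts upstream of Neurod1, was at -0.19 (SE 0.12). Of 26 genes of immature neurons, 1 was higher and 3 lower, with Nhlh1 at 0.41 (SE 0.15) and Bhlhe22 at -0.21 (SE 0.07). Of 25 genes of signals that act on neurogenesis, 4 were higher and 1 lower, and the ligand gene Wnt3 was at 0.29 (SE 0.10), from -0.03 (SE 0.14) in WT and 0.61 (SE 0.13, adjusted p = 0.297 by edgeR) in MSK1 KD. In this list 0 genes were higher in WT and 7 in MSK1 KD at an unadjusted p under 0.05. Over all 20187 genes tested, 797 were higher in WT and 1138 in MSK1 KD. The difference between genotypes was not tested for the list. With Ttr as a covariate 302 of all genes were higher in MSK1 KD, and the list was not counted in that fit. Of 12 markers of mature granule neurons, 0 passed in either direction, and Prox1, which sets granule neuron identity, was at -0.15 (SE 0.11). In all these lists 0 genes were called after adjustment.

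Markers of other cells were counted alongside. Of 9 choroid plexus genes, 7 were higher in enriched housing over both genotypes at an unadjusted p under 0.05, 0 in WT and 9 in MSK1 KD (5.64% of all genes were higher there), with medians of the log2 fold change of 2.32, 0.51 and 3.86. Their summed level ran from 32.0 to 4462 CPM in WTSH, 47.6 to 6019 in WTEE, 27.4 to 109 in KDSH and 89.6 to 9826 in KDEE. Of 8 microglia genes 3 were higher, and of 12 genes of oligodendrocyte precursors, which divide in the adult brain, 2 were higher and 1 lower. Their part in the values of Mki67 was not tested, apart from the fit with Ttr given above. Eomes is also expressed by T and NK cells. The 9 markers of those cells summed to between 0.227 and 1.25 CPM, and Ncr1 and Klrb1c were at 3 or fewer counts in every library. Cajal-Retzius neurons, a type at the hippocampal fissure known to express Eomes in development, had 9 markers summing to between 132 and 194 CPM, with 0 of 9 at 3 or fewer counts in all libraries of a group. Much of that sum was Reln (group means of 82.2 to 100.3 CPM), which adult interneurons also express, while the group means of Trp73 were 3.64 to 5.63 CPM, those of Lhx1 0.362 to 0.578 CPM and those of Lhx5 0.1998 to 0.343 CPM.

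How the 9 genes varied together was described across the 21 kept libraries, on log2 CPM with the group means subtracted. The points share library depth and dissection, and r between members is given as a description. The median r of the 36 pairs was -0.05. Eomes and Igfbpl1 had the highest r at 0.84, followed by Sox11 and Neurod1 at 0.76 and Dcx and Mki67 at 0.55. Mki67 and Top2a, both of dividing cells, had an r of 0.08. The lowest was Dcx with Neurod1 at -0.50.

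**Figure D4:**
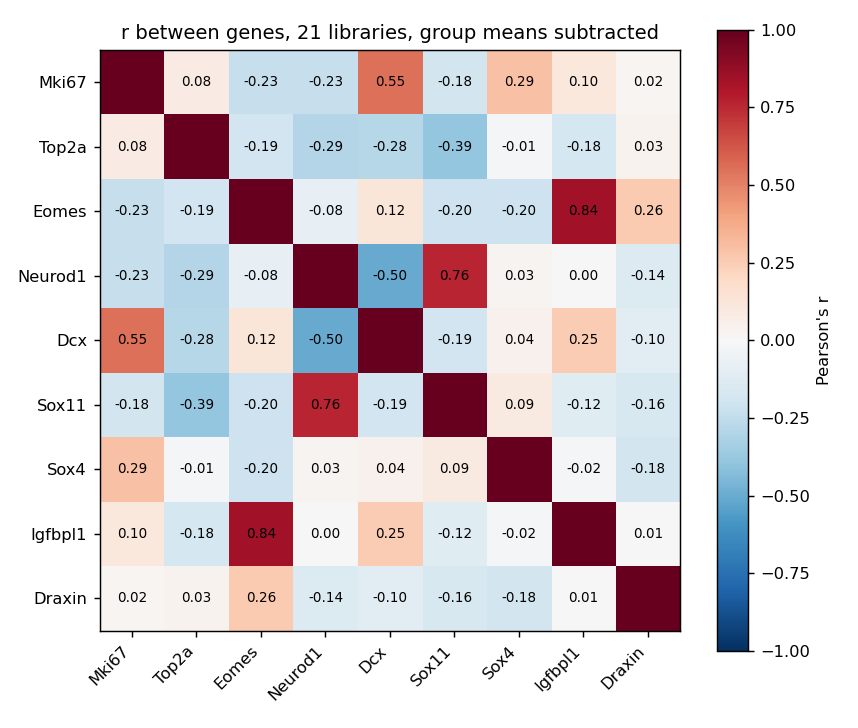
Pearson's r between each pair of the 9 genes (rows and columns) over 21 libraries with group means subtracted, from -1 (blue) to 1 (red). Eomes with Igfbpl1 (0.84) and Sox11 with Neurod1 (0.76) stand out, and Mki67 with Top2a is near 0 (0.08).

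A family of 17 relations was tested with 100000 permutations within groups, and 0 passed at an adjusted p under 0.05. Dcx and Mki67 had r = 0.55 (permutation p = 0.00739, adjusted p = 0.126) and Spearman's rho = 0.54 (permutation p = 0.0166, adjusted p = 0.211), and r was 0.43 without WTEE-10 and WTSH-5. Dcx and the mean of the mature granule neuron markers had r = -0.56 (permutation p = 0.0308, adjusted p = 0.194) and rho = -0.48 (permutation p = 0.0496, adjusted p = 0.211), and r was -0.25 without WTSH-23 and WTSH-5. Neurod1 and the same mean had r = 0.53 (permutation p = 0.0459, adjusted p = 0.195) and rho = 0.51 (permutation p = 0.0362, adjusted p = 0.211), and r was 0.47 without the same pair of libraries.

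Genes with the pattern most like that of Dcx over the 21 libraries were Hdx (r = 0.93), Sfmbt2 (0.92) and 9330182L06Rik (0.91), and for Mki67 they were Col11a1 (0.93), Gm14372 (0.93) and Epha4 (0.93). Mki67 had an r of -0.40 with the mean of the cell division list and Top2a one of 0.42. Mki67 also had an r of 0.55 with the percent of read pairs outside annotated features and of -0.61 with the percent that were ambiguous, and Sox4 had one of -0.59 with the latter. Their part in the values of Mki67 and Sox4 was not tested. WTEE-10, the lowest kept library for Mki67, Sox4 and Dcx, had the highest percent of ambiguous read pairs of the kept libraries (6.569%). The paper describes this sample as more variable than the rest of its group, with a correlation still above the limit used to leave libraries out.

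The libraries left out by the study for failing its quality control were scaled together with the others, so their levels and the results with all 24 libraries carry that limit. Dcx was 14.04 CPM in KDSH-6, below every kept library (15.1 to 31.6 CPM on this scale), and 20.3 and 23.97 CPM in WTSH-4 and WTSH-7. Sox11 was 14.99 and 19.2 CPM in WTSH-4 and WTSH-7, above every kept library (8.88 to 13.9 CPM). Mki67 was 5.07 CPM in WTSH-7, above every kept library (1.25 to 3.73 CPM), 3.67 CPM in WTSH-4 and 1.91 CPM in KDSH-6. Neurod1 was 15.96 CPM in WTSH-4, above the kept maximum of 15.1 CPM. Sox4, Eomes, Igfbpl1, Top2a and Draxin lay inside the kept range in all 3. With all 24 libraries the fold change of Mki67 was -0.33 over both genotypes (adjusted p = 0.160) and -0.57 in WT (adjusted p = 0.246 by edgeR). In that fit 0 of the 9 genes were called, against 1 of 19817 genes in WT and 15 in the mean of genotypes.

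**Figure D5:**
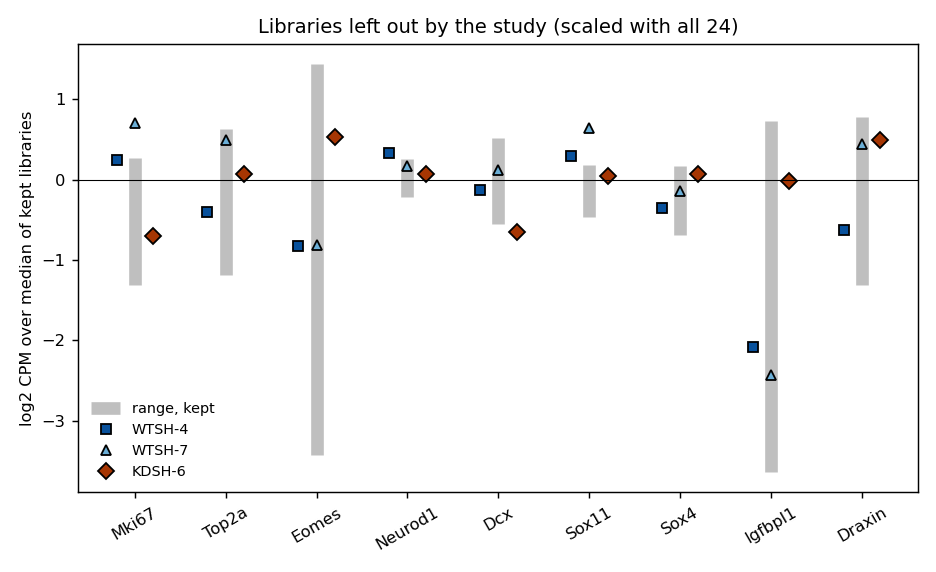
Log2 of the CPM over the median of the kept libraries (y axis) for each gene (x axis) in the 3 libraries left out (symbols), with the grey bar giving the range of the 21 kept libraries. Symbols lie beyond the bar for Mki67 and Sox11 in WTSH-7, Sox11 and Neurod1 in WTSH-4 and Dcx in KDSH-6.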

How the data were processed

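Per the labels and the study's methods, the authors aligned read pairs with STAR 2.5 to GRCm38 and counted unique alignments per gene symbol with HTSeq 0.6.1p1, without regard to strand. The deposited values are raw counts without normalization, and the HTSeq total lines were kept out of library sizes. Each library is 1 mouse, so p-values and the 95% intervals of fold changes carry the spread between mice. Housing was given by cage, and the labels do not name the cages. Mice that may have shared a cage were therefore treated as independent, also in the permutation tests. Mouse numbers do not recur between groups.

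Counts of the 21 kept libraries were fitted in 1 model of 4 groups with edgeR 4.0.16 (R 4.3.3; TMM, filterByExpr, quasi-likelihood test), with Benjamini-Hochberg adjustment over all 20187 genes tested. On simulated counts for WTEE against WTSH (19912 genes), 179 of 200 genes changed by a log2 fold change of 1 were recovered (89.5%), with 5 false calls. The changed genes were drawn above a limit on the mean count that Draxin and Top2a do not reach. The share recovered was not measured for genes of such low counts or for smaller changes. Nor was it measured apart for genes as scattered between mice as Eomes and Igfbpl1. Single genes were compared with exact two-sided permutation tests. Log2 CPM used a prior count of 2. Positions and exon lengths came from GENCODE M21 (GRCm38), promoters from RefSeq.

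The 9 genes and the marker lists were chosen with earlier results of these data known. Named are the 9 genes, from each list the 3 with the smallest p and 3 defining markers where reported, and the genes most like Dcx and Mki67. Ncr1, Klrb1c and the genes most like Eomes and Igfbpl1 fall outside this rule and were chosen after their values were seen. Alternatives were DESeq2 1.42.0, DESeq2-style size factors, no filter, all 24 libraries, only the groups compared, a robust fit, granule neuron markers or Ttr as a covariate, and leaving out each library.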

Additional observations from a re-analysis of the deposited data

Results flagged for a closer look

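In 36 groups of values (9 genes in 4 groups), 3 held a library far from the others of its group by Dixon's ratio, where chance gives about 1 in 20. Sox4 was 6.15 CPM in WTEE-10, with the next lowest WTEE library at 8.59 CPM (gap over range 0.6251 against a limit of 0.625). Eomes was 3.61 CPM in WTSH-19, with the next at 0.707 CPM (0.833 against 0.829). Eomes was 2.91 CPM in KDEE-14, with the next at 1.67 CPM (0.759 against 0.625). The difference between the genotypes in the effect of housing was tested for all 9 genes with edgeR, and 0 passed at an adjusted p under 0.05 and 0 at an unadjusted p under 0.05.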

How the results depend on the processing

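None of the 9 genes was called in the 6 comparisons under the alternatives run, and the smallest adjusted p over them was 0.120. The fit with only the groups compared covers 4 of the 6 comparisons, and DESeq2 with its defaults gave no adjusted p for Draxin in KDEE against KDSH. No paired analysis was possible because the mouse numbers run from 1 to 24 and none is shared between groups.

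Counts over all genes moved with the tool. DESeq2 with its defaults called 2 genes in WTEE against WTSH, 14 in KDEE against KDSH, 41 in the mean of genotypes, 20 in the interaction and 118 in KDEE against WTEE, where edgeR called 0, 0, 1, 0 and 0. A first run of DESeq2 dropped the genes at 0 in all libraries and gave 2, 14, 41, 20 and 113. It departed from the planned defaults, was noticed because its last count differed from one already known for these data, and is kept as an alternative chosen after seeing the data. All 24 libraries gave 1 call in WT and 15 in the mean of genotypes, and fitting only the groups compared gave 1 in MSK1 KD. Leaving out 1 library gave 0 to 1 calls in WT and 0 to 6 in the mean of genotypes (0 without WTSH-5 or WTSH-19, 2 without KDSH-18 or KDEE-20, 6 without WTEE-21).

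Of the exact permutation tests of single genes, 0 were under 0.05, against 1 with all 24 libraries (Mki67 in WT, exact p = 0.0152) and 0 to 2 without 1 library. These were Sox11 (exact p = 0.0286) and Neurod1 (0.0143) in MSK1 KD without KDSH-18, Eomes in MSK1 KD without KDSH-1 (0.0333), Sox4 in WT without WTSH-19 (0.0476), and Mki67 in WT without WTEE-17 (0.0397) or WTEE-21 (0.0159). Of the relations, 0 passed, against 1 with all 24 libraries (Dcx with Mki67, r = 0.61) and 0 without any 1 library. Genes with fewer than 10 read pairs in a library were 4 with all 24 libraries, against 1.

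Log2 fold changes that changed sign were small or imprecise. With all 24 libraries they were Sox11 (-0.14) and Neurod1 (-0.0508) in WT, Dcx (0.0529) in MSK1 KD, Sox11 (-0.0456) in the interaction, and Dcx (-0.0153), Sox4 (0.0705), Eomes (0.0977) and Neurod1 (-0.053) in KDSH against WTSH. With Ttr as a covariate they were Dcx (0.0743) and Mki67 (0.0165) in MSK1 KD, Sox11 (0.0147) and Draxin (-0.0105) in the mean of genotypes, Eomes (0.444) in the interaction, Dcx (-0.0188), Eomes (0.435), Neurod1 (-0.00696) and Top2a (0.0769) in KDSH against WTSH, and Eomes (-0.00939) in KDEE against WTEE. With granule neuron markers as a covariate they were Draxin (0.013) in WT and Neurod1 (-0.00938) in KDSH against WTSH, and with DESeq2-style size factors Draxin in WT (0.000119). With all 24 libraries r turned to -0.00504 for Eomes with Dcx and -0.0265 for Sox4 with the granule neuron markers. The cause was not tested.

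Leaving out 1 library moved the sign within these ranges. In WT they were -0.0597 to 0.0662 for Sox11, -0.0301 to 1.99 for Eomes, -0.041 to 0.0764 for Neurod1, -0.0516 to 0.25 for Top2a and -0.25 to 0.27 for Draxin. In MSK1 KD they were -0.15 to 0.0116 for Dcx, -0.0159 to 0.0515 for Sox4 and -0.0696 to 0.33 for Igfbpl1, and in the mean of genotypes -0.0615 to 0.00306 for Neurod1. In the interaction they were -0.27 to 0.0322 for Dcx, -0.75 to 1.27 for Eomes and -0.51 to 0.0206 for Draxin. In KDSH against WTSH they were -0.0698 to 0.23 for Dcx, -0.0936 to 0.092 for Sox11, -0.0877 to 0.0207 for Sox4, -0.61 to 1.41 for Eomes, -0.0448 to 0.0771 for Neurod1, -0.11 to 0.00859 for Mki67, -0.19 to 0.12 for Top2a and -0.15 to 0.38 for Draxin. In KDEE against WTEE they were -0.11 to 0.30 for Eomes and -0.0896 to 0.32 for Igfbpl1. For r with Dcx they were -0.43 to 0.16 for Sox4, -0.11 to 0.23 for Eomes, -0.00253 to 0.37 for Igfbpl1 and -0.24 to 0.27 for Draxin. For r with the granule neuron markers they were -0.47 to 0.11 for Eomes, -0.38 to 0.37 for Igfbpl1, -0.0218 to 0.21 for Mki67, -0.0606 to 0.15 for Top2a and -0.20 to 0.39 for Draxin.

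Depth limits Draxin and Top2a most, with medians of 25 and 27 read pairs, and the spread between mice limits Eomes and Igfbpl1.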

Other observations

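Eomes and Igfbpl1, the most scattered of the 9 genes, were looked up after their values were seen. Over the 21 libraries with group means subtracted, the genes most like Eomes were Ebf2 (r = 0.95), Zic1 (0.94) and Ebf3 (0.94), transcription factor genes. They were followed by A230065H16Rik (0.92) and by Postn (0.92), which encodes a matrix protein. Zic1 ranged from 6.88 to 43.8 CPM. The genes most like Igfbpl1 were Prdm12 (0.96), Gm13425 (0.95) and Duox2 (0.92), with Zic1 at 0.91. Eomes had an r of 0.82 with the mean of the Cajal-Retzius list, which itself holds Ebf3. Igfbpl1 had one of 0.74 with the mean of the list for inhibitory neuroblasts of the ventricle wall. The other way round, Igfbpl1 had 0.59 with the Cajal-Retzius list and Eomes 0.56 with the neuroblast list. With the mature granule neuron list Eomes and Igfbpl1 had -0.26 and -0.19. Eomes had an r of 0.32 with the progenitor list, and Igfbpl1 one of 0.23 with the immature neuron list. Dcx had an r of -0.69 with the stem cell list, -0.61 with the microglia list and 0.18 with the immature neuron list. These are descriptions over libraries that share dissection and depth.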
